A study of Mus musculus with 9 samples.

Results

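The arrays of adult olfactory bulb stem cells (aOBSCs) that received FGF-2 and EGF every 4 days (C4) were compared directly with those that received them every 2 days (C2). The rule took 6 of the 9 arrays of the series, 3 per condition, and used 45037 of the 45101 probe sets, with 64 Affymetrix control probe sets left out. The 3 arrays of daily addition (Ctr) were left out of the comparison, apart from 1 alternative fit with all 9 arrays. Whether they entered the normalisation of the deposited values is not stated in the sources used here. aOBSCs are cells of the mouse olfactory bulb that grow as floating clusters, the neurospheres, and can give rise to neurons, astrocytes and oligodendrocytes. The cells of both conditions were grown in DMEM/F12-N2 medium with each factor at 20 ng/ml, were passaged 2 times in their condition and were collected after 7 days in culture. The medium was not changed in that time, so that the last addition lay 1 day before collection in C2 and 3 days before it in C4. The interval, the time since the last addition and the number of additions therefore cannot be told apart. The study also counted fewer cells per neurosphere in C4 than in C2, and cell number cannot be separated from the interval here either. Donors were CD1 or C57Bl/6 mice, aged 7 and 15 months, and the sources used here do not say which array came from which donor or culture. P-values below thus measure the spread between these arrays.

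Both growth factors act through receptor tyrosine kinases, FGF-2 on the Fgfr family and EGF on Egfr, and both activate the Ras-ERK cascade, which switches on immediate early genes and its own inhibitors. In neural stem cells these signals favour proliferation and hold back glial and neuronal differentiation. Amino acid supply is read by a different circuit, the integrated stress response: kinases that sense uncharged tRNA or misfolded protein phosphorylate eIF2 alpha, translation of the transcription factor Atf4 goes up, and Atf4, with C/EBP partners, switches on genes of amino acid synthesis, uptake and tRNA charging through a composite DNA element.

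The values were log2 intensities, so that a difference of 1 is a 2-fold change, and differences are given as C4 minus C2. Each gene was read from the brightest of its probe sets, which gave 18193 genes. Of these, 9429 had a mean of at least 4 in C2 or in C4, a level taken here as the floor of the signal. A gene can thus be over the floor through its higher condition alone, which ties this filter in part to the difference. Among the called genes this held for 15 that rose and 3 that fell. Of the 45037 probe sets, 1404 (3.12%) passed an adjusted p of 0.05 in limma, 764 higher and 640 lower in C4. A further 14496 held 1 identical value on all 6 arrays and could not pass, which lowers this share. At the study's threshold of a difference of at least 1, there were 303 probe sets, 164 higher and 139 lower, and 230 of them passed the test as well. By gene, 470 of 18193 (2.58%) rose and 396 (2.18%) fell, and 736 of these 866 genes differed by less than 1. Among the genes over the floor the shares were 4.95% and 4.14%, with a median difference of 0.019. Every C4 array lay above every C2 array for 21.2% of the genes over the floor, and below it for 17.9%. The counts per list below are to be read beside these shares. The lists were chosen with earlier results of these data known, so their counts describe the lists and are no independent support.

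The 6 arrays were close in their overall signal but not identical. The median of the probe sets over 4 on all arrays ran from 7.218 in C4 replicate 1 to 7.303 in C4 replicate 3. After median centring, which removes such shifts, 2882 probe sets passed the test instead of 1404. Between 34.8% and 35.4% of the probe sets of an array stood at its lowest value, and the correlation between arrays of 1 condition was at least 0.99769, against at most 0.99626 between conditions. The median SD between arrays over the floor was 0.0794 in C2 and 0.102 in C4. With any 1 array left out, 390 to 814 probe sets passed the test, fewest without C2 replicate 2.

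**Figure D1:**
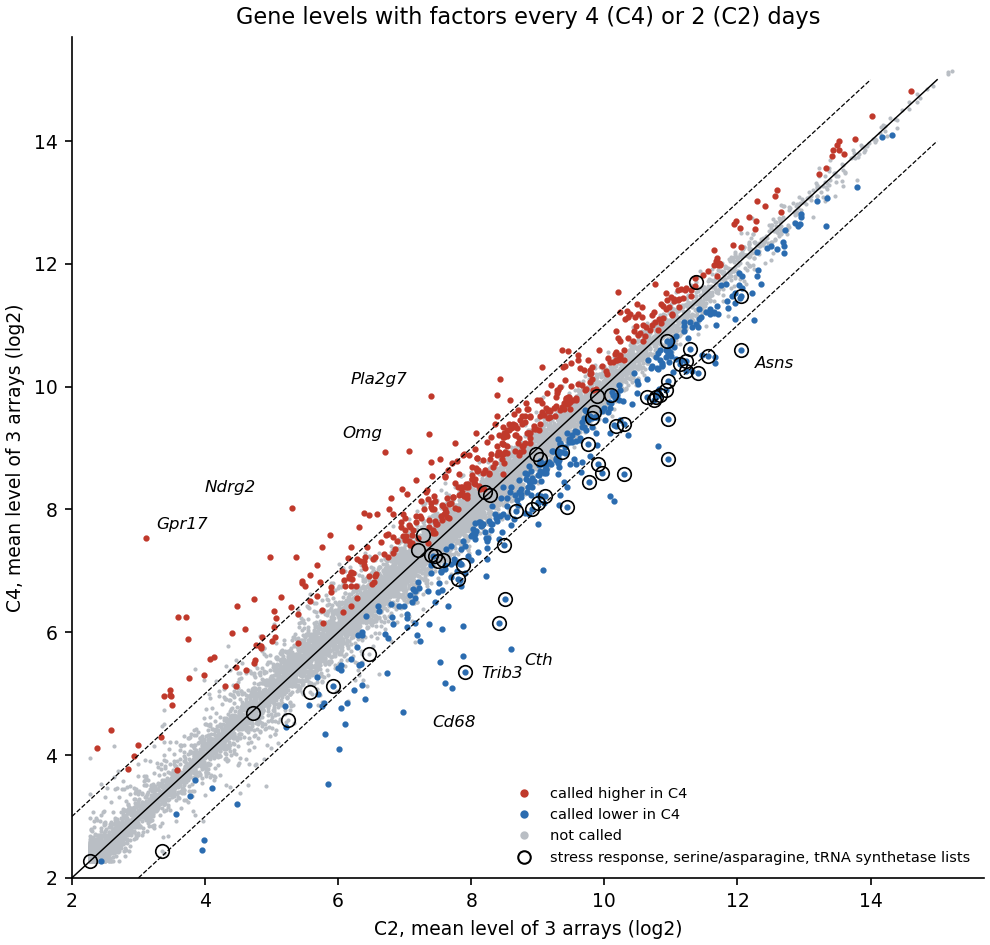
The mean log2 level of each of 18193 genes in C4 (vertical axis) is plotted against its mean level in C2 (horizontal axis), with the 470 genes that rose in red, the 396 that fell in blue and dashed lines at a difference of 1. Circles mark members of the integrated stress response, serine and asparagine, and tRNA synthetase lists, most of which lie below the diagonal, and the widest departures are Gpr17 above it and Cth below it.

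Most genes of the integrated stress response list over the floor were lower in C4. Of 22 measured members, 13 fell and none rose, against 2.18% and 2.58% of all genes. The median difference was -0.82, against 0 over all genes. Of the 20 members over the floor, every C4 array was below every C2 array for 17, against 17.9% of all genes over it. Atf4, the transcription factor at the centre of this response, stood at 11.25, 11.24 and 11.38 on the C2 arrays and at 10.71, 10.59 and 10.55 on the C4 arrays. It fell by 0.68 ± 0.062 (SE) on the log2 scale, with an adjusted p of 0.0161 (limma, n = 3 arrays per condition), and no C4 array reached a C2 array.

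Atf5, a related factor that Atf4 controls, had 8.56, 8.44 and 8.51 in C2 and 6.40, 6.39 and 6.82 in C4, a difference of -1.96 ± 0.14 (limma, adjusted p = 0.00867). Ddit3 (CHOP), which favours cell death in prolonged stress, read 9.85, 9.92 and 9.94 in C2 against 8.73, 8.80 and 8.70 in C4, 1.17 lower. Chac1, an enzyme that breaks down glutathione, went from 8.33, 8.36 and 8.53 to 6.01, 6.31 and 6.13, which is 4.78-fold lower. The C4 arrays were the lower ones for all 3 genes, without overlap. Trib3, a pseudokinase that restrains Atf4 and Akt, had 7.89, 7.86 and 7.94 in C2 and 5.63, 4.94 and 5.52 in C4, a difference of -2.53 ± 0.20 (limma, adjusted p = 0.0118). Cebpg, a C/EBP partner of Atf4, had the smallest SE among the decreases of the list, with 9.46, 9.44 and 9.41 in C2 and 8.03, 8.03 and 8.06 in C4, and fell by 1.40 ± 0.019 (limma, adjusted p = 0.000403).

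The other members that fell were Nupr1, a small stress-induced nuclear protein (-2.12), Eif4ebp1, which holds back cap-dependent translation (-1.17), Jdp2, a repressor of AP-1 (-0.93), Gadd45a, a growth arrest protein (-0.91), the lipoprotein receptor Vldlr (-0.82), Atf3 (-0.81) and Ddit4, an inhibitor of mTORC1 (-0.19). Sesn2 and Cebpb did not pass, at -0.77 (adjusted p = 0.0593) and -0.82 (adjusted p = 0.205). Eif2ak4 (GCN2), the kinase that senses uncharged tRNA, differed by -0.21 (adjusted p = 0.68), and Eif2ak3 (PERK), its counterpart in the endoplasmic reticulum, by 0.32 (adjusted p = 0.12). Cebpg, Chac1, Ddit3, Eif4ebp1, Jdp2, Nupr1 and Vldlr kept the call with every array left out. Without C2 replicate 1 or C2 replicate 2, those 7 were the ones that passed.

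The promoters of the genes in this group were read for the composite element through which Atf4 and C/EBP factors act. The motif was TGATGNAA on both strands, searched in the 250 bases before the start site of RefSeq genes (GRCm38.p6). It was found in 3.45% of all 32851 promoter windows and in 2.84% of the measured genes. Among the genes lower in C4 that had a promoter window, it was present in 5 of 12 of the integrated stress response, 3 of 10 enzymes of serine, asparagine and folate metabolism and 3 of 9 tRNA synthetases. Among the members that did not pass the test the counts were 1 of 9, 0 of 5 and 0 of 5. Of 16 amino acid transporters with a window, 3 of which fell, 0 held the motif. The lists hold kinds of genes that Atf4 switches on, so a share above that of all measured genes could be expected beforehand. The counts are also small. The matches are shown with up to 25 bases on either side, on the strand of the gene, for the genes whose decrease was found with every array left out. Capitals mark the motif, which reads TTNCATCA where it lies on the opposite strand.
Asns (chr6:7693210-7693257, gene on the minus strand): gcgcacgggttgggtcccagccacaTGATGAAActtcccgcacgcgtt
Chac1 (chr2:119351024-119351081, plus strand): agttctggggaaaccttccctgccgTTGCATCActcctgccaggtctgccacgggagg
Nupr1 (chr7:126625548-126625605, minus strand): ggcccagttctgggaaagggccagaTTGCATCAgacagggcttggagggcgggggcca
Jdp2 (chr12:85599358-85599415, plus strand): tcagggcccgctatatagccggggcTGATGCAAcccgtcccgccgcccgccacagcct
Vldlr (chr19:27216795-27216852, plus strand): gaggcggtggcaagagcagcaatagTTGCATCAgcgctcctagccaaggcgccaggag
Pck2 (chr14:55540138-55540195, plus strand): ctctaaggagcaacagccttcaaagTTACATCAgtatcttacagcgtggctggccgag
Aars (chr8:111033705-111033762, plus strand): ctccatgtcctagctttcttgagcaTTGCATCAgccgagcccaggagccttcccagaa
Gars (chr6:55037946-55038000, plus strand): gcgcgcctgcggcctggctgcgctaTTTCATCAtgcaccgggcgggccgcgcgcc
Tars (chr15:11399659-11399698, minus strand): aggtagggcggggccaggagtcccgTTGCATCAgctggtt
The match of Asns lay 23 to 16 bases before the start site and that of Vldlr 200 to 193 bases before it. These letters describe the windows only, and binding was not measured.

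Enzymes that make serine, glycine and asparagine and carry folate-bound carbon were the next group with decreases. Of 16 measured members, all over the floor, 11 fell and none rose, with a median difference of -0.83. Over all genes above the floor, 4.14% fell. Asns (chr6:7675165-7693209), which makes asparagine from aspartate, stood at 12.06, 12.03 and 12.10 in C2 and at 10.57, 10.66 and 10.56 in C4. The difference was -1.46 ± 0.038 (limma, adjusted p = 0.00128), a 2.76-fold decrease, and the other Asns probe set read -1.61. Enzymes along the serine pathway fell: Phgdh, which starts it from a glycolytic intermediate, by 0.59, Psat1 by 0.76 and Psph, which releases serine, by 0.98. Phgdh and Psat1 lost the call with any 1 array left out, with adjusted p in limma up to 0.169 and 0.131.

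Several enzymes of mitochondrial folate metabolism fell as well. Shmt2, which splits serine into glycine and a carbon unit in mitochondria, had 11.00, 10.89 and 10.95 in C2 and 9.59, 9.42 and 9.39 in C4. Mthfd2, which oxidises that carbon unit, went from 10.33, 10.24 and 10.35 to 8.61, 8.69 and 8.41, a difference of -1.74 ± 0.085 (limma, adjusted p = 0.00385). Aldh1l2 and Mthfd1l, further mitochondrial steps, fell by 1.37 and 0.89. Mthfd2l, a mitochondrial paralog of Mthfd2, did not pass, at -0.04 (adjusted p = 0.783). The cytosolic counterparts Shmt1 and Mthfd1 did not pass the test, at -0.13 (adjusted p = 0.419) and 0.071 (adjusted p = 0.745). Whether the mitochondrial and cytosolic enzymes differed from each other was not tested. Pck2, the mitochondrial enzyme that makes phosphoenolpyruvate, fell by 1.32, Aldh18a1, an enzyme of proline synthesis, by 0.90, and the aspartate aminotransferase Got1 by 0.33. Aldh1l2, Asns, Mthfd1l, Mthfd2, Pck2, Psph and Shmt2 kept the call with every array left out, and each fit with an array left out called 7 or 8 members.

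Aminoacyl-tRNA synthetases join each amino acid to its tRNA. Of 20 measured members, all over the floor, 13 fell and none rose, with a median of -0.75. For 17 of the 20 every C4 array was below every C2 array. Over all genes above the floor, these shares were 4.14% for decreases and 17.9% for arrays without overlap. Lars, for leucine, had 11.19, 11.22 and 11.24 in C2 and 10.21, 10.27 and 10.27 in C4, a difference of -0.97 ± 0.025 (limma, adjusted p = 0.00128). Sars, for serine, had 11.48, 11.48 and 11.68 against 10.52, 10.53 and 10.45, and fell by 1.05. The 13 decreases lay between -0.43 for Rars and -1.07 for Wars, a narrower range than in the other groups described so far. Qars, for glutamine, differed by -0.063 (adjusted p = 0.907), Kars by -0.23 (adjusted p = 0.312) and Hars by -0.28 (adjusted p = 0.22). Of the scaffold proteins of the multi-synthetase complex, Aimp1 read -0.049 and Aimp2 -0.21, and neither passed. Aars, Eprs, Gars, Iars, Lars, Mars1, Sars and Tars kept the call with every array left out.

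**Figure D2:**
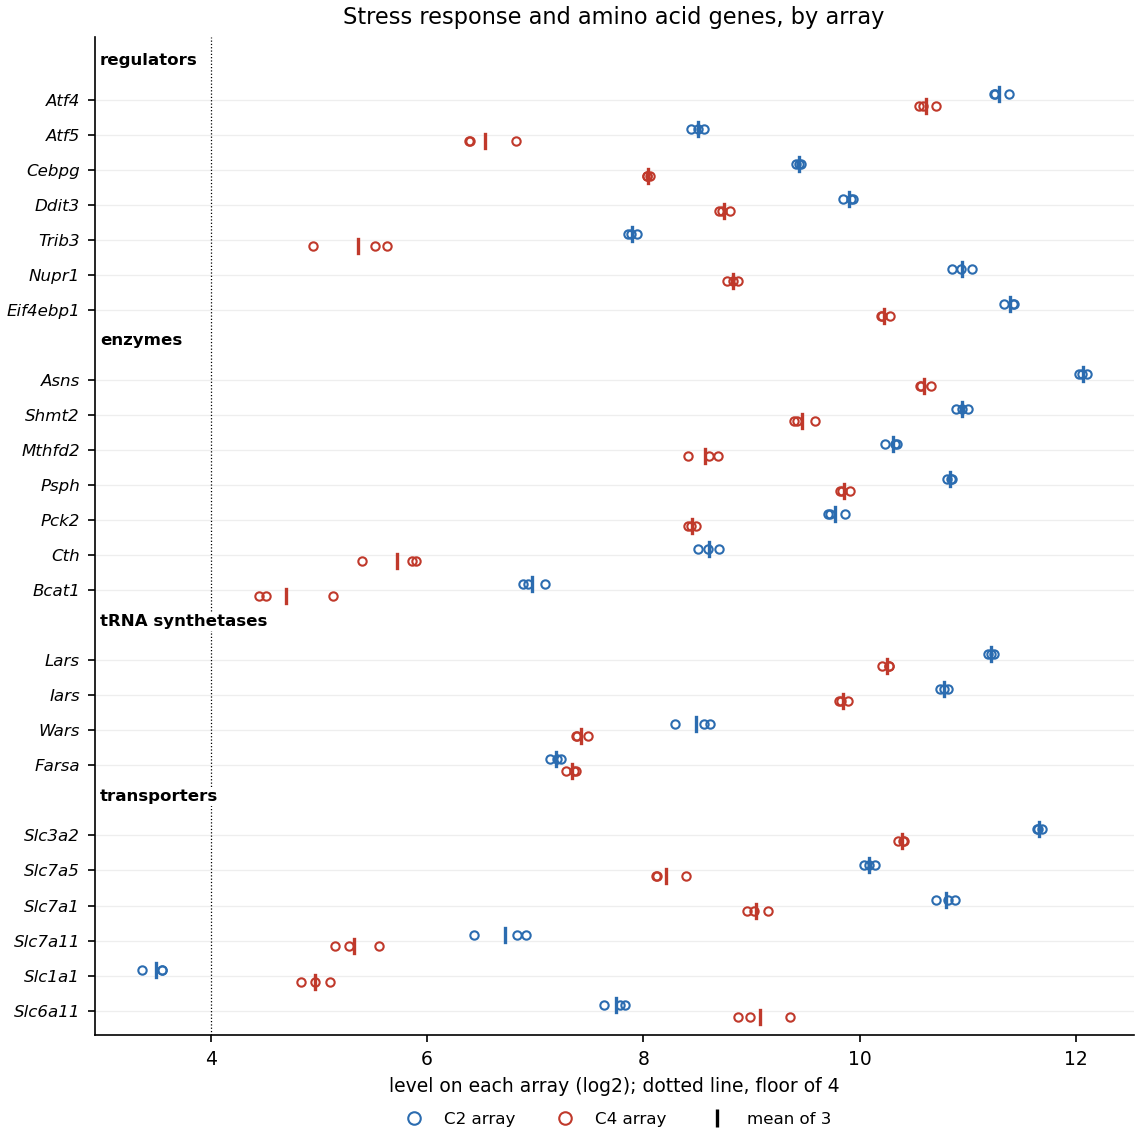
Open circles give the log2 level on each array and vertical marks the mean of 3 arrays, C2 in blue and C4 in red, for regulators of the stress response, enzymes, tRNA synthetases and transporters. The C4 circles lie to the left of the C2 circles for every gene drawn except Farsa, Slc1a1 and Slc6a11, and only Slc1a1 in C2 is under the dotted floor of 4.

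Amino acid transporters moved in both directions. Of 23 measured members, 4 fell and 3 rose. Slc3a2, the heavy chain shared by several exchangers, stood at 11.64, 11.65 and 11.69 in C2 and at 10.36, 10.41 and 10.40 in C4, 1.27 lower with an SE of 0.02 (limma, adjusted p = 0.000426). Slc7a5 (LAT1), the light chain that brings in leucine and other large neutral amino acids, had 10.09, 10.04 and 10.14 against 8.12, 8.13 and 8.39, a 3.66-fold decrease. Slc7a1, which carries arginine and lysine, fell by 1.76 and Slc38a2, which carries small neutral amino acids, by 0.67. Each of these 4 genes was lower on all C4 arrays.

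The transporters that rose were Slc1a1, Slc6a11 and Slc7a2. Slc1a1, a glutamate and cysteine carrier, had 3.36, 3.55 and 3.55 in C2, under the floor, and 5.10, 4.83 and 4.96 in C4. Slc6a11 (GAT-3), a GABA carrier of astrocytes, rose by 1.33, from 7.78, 7.64 and 7.83 to 8.99, 8.88 and 9.36. Slc7a2, another carrier of arginine and lysine, rose by 0.66, while Slc1a3, the main glutamate carrier of radial glia, differed by 0.21 (adjusted p = 0.115). Slc1a1, Slc3a2, Slc7a1 and Slc7a5 kept the call with every array left out.

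Cth (chr3:157894248-157925081), which makes cysteine from cystathionine, had the largest decrease of all genes. It stood at 8.60, 8.51 and 8.70 in C2 and at 5.40, 5.90 and 5.86 in C4, a difference of -2.88 ± 0.16 (limma, adjusted p = 0.00498), which is 7.37-fold. Slc7a11, which imports cystine, had 6.43, 6.91 and 6.83 in C2 against 5.55, 5.28 and 5.15 in C4, and fell by 1.40. It lost the call with any 1 array left out, with adjusted p up to 0.134. Of 21 measured genes of cysteine, methionine and glutathione metabolism, Gpx4, which reduces lipid peroxides, also fell (-0.40), and Gpx8 and Gsta4 rose, by 0.78 and 0.65. Gclc, the rate-limiting enzyme of glutathione synthesis, differed by -0.39 (adjusted p = 0.128). Cth, Gpx8 and Gsta4 kept the call with every array left out.

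Branched-chain amino acid breakdown had 19 measured genes, of which Bcat1 fell and Abat, which also breaks down GABA, rose. Each is 5.26% of the list, against 2.18% of all genes lower and 2.58% higher. Bcat1, the cytosolic aminotransferase of leucine, isoleucine and valine, stood at 6.89, 6.93 and 7.09 in C2 and at 4.51, 5.13 and 4.44 in C4, 4.84-fold lower. Without an array it lost the call in 5 of the 6 fits, with adjusted p up to 0.0883. The mitochondrial dehydrogenase subunits Bckdha and Dbt, which act after Bcat1, read 0.49 (adjusted p = 0.127) and -0.29 (adjusted p = 0.259). Abat kept the call with every array left out.

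Proteins of the unfolded protein response of the endoplasmic reticulum, which shares the kinase PERK with the integrated stress response, gave a median of -0.05 over 23 measured members. Herpud1 and Ero1a fell by 0.43 and 0.46 and Manf rose by 0.24. These are 8.7% and 4.35% of the list, against 2.18% and 2.58% of all genes and 4.14% and 4.95% of those over the floor. Hspa5 (BiP), the main chaperone of this compartment, differed by 0.25 (adjusted p = 0.228), and Xbp1 by 0.31 (adjusted p = 0.0766). None of the 3 called genes kept the call with every array left out.

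Genes that answer FGF and ERK signals were not uniform. Of 19 measured feedback inhibitors and ETV factors, 3 fell and 1 rose, and the median difference was -0.20. Spry1, an inhibitor of receptor tyrosine kinase signalling, stood at 9.84, 9.85 and 9.95 in C2 and at 9.23, 9.29 and 9.21 in C4, a difference of -0.63 ± 0.043 (limma, adjusted p = 0.00836). Spry4 fell by 0.93, from 9.78, 9.85 and 9.75 to 9.01, 8.72 and 8.87. Dusp6, the phosphatase that inactivates ERK, fell by 0.44, from 11.91, 11.89 and 11.97 to 11.47, 11.53 and 11.45. The C4 arrays were the lower ones for all 3, and none of them kept the call with every array left out, the highest adjusted p being 0.0513, 0.083 and 0.0546.

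Phlda1, a further gene of this list, rose by 0.31, and lost the call with any 1 array left out. Spry2 and Spred1, which belong to the same families of inhibitors, read -0.40 (adjusted p = 0.0735) and -0.35 (adjusted p = 0.107). Of the ETV factors, which FGF signals induce, Etv5 differed by -0.29 (adjusted p = 0.419) and Etv4 by 0.15 (adjusted p = 0.745). Ccnd1, the G1 cyclin downstream of ERK, differed by -0.44 (adjusted p = 0.0547). An ETS site, CCGGAAGT on both strands, was found in 0 of the 13 members with a promoter window and in 4.95% of the measured genes.

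Immediate early genes, which are transcribed within minutes of a signal, included 10 called genes. Of 29 measured members, 8 rose and 2 fell, with a median of 0.30. Fos stood at 12.64, 12.54 and 12.58 in C2 and at 13.20, 13.19 and 13.20 in C4, a rise of 0.62 ± 0.026 (limma, adjusted p = 0.00299). Nr4a1, an orphan nuclear receptor, rose by 1.18, from 8.12, 8.03 and 8.05 to 9.24, 9.29 and 9.21. Btg2, an antiproliferative gene, had 7.20, 7.01 and 7.30 in C2 and 8.45, 8.41 and 8.57 in C4, 2.48-fold higher. All C4 arrays were above all C2 arrays for the 3 genes.

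The other rises were those of Egr2 (0.74), Ier2 (0.64), Egr1 (0.54), the matrix protein Ccn1 (0.49) and the phosphatase Dusp1 (0.47). Ier3, an early gene that prolongs ERK activity and protects from apoptosis, went down instead, from 9.65, 9.66 and 9.68 to 8.77, 8.79 and 8.77, a difference of -0.89 ± 0.013 (limma, adjusted p = 0.000426). Ier5 fell by 0.39. Jun and Myc differed by 0.23 (adjusted p = 0.0688) and -0.15 (adjusted p = 0.586). Egr2, Fos, Nr4a1 and Ier3 kept the call with every array left out, and 4 to 6 of the rises were called in those fits.

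The cyclic AMP response element, TGACGTCA, reads the same on both strands and was present in 2 of the 6 early genes that rose and had a promoter window, against 1.55% of all windows and 2.5% of the measured genes. It was also present in 1 of 13 early genes that did not pass the test and in 0 of the 2 that fell. The matches of the genes that rose are shown.
Btg2 (chr1:134079289-134079346, minus strand): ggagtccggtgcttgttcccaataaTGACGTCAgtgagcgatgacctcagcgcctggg
Dusp1 (chr17:26508583-26508640, minus strand): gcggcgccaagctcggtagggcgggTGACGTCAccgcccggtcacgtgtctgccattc

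Of the receptors of the added factors, Egfr and Fgfr3 rose. Egfr (chr11:16752203-16913907), the receptor of EGF, stood at 10.23, 10.19 and 10.13 in C2 and at 10.88, 10.89 and 10.94 in C4, a rise of 0.72 ± 0.033 (limma, adjusted p = 0.0034). Its other probe sets over the floor gave 0.75, 0.72 and 0.47. Fgfr3 rose by 1.20, from 8.72, 8.67 and 8.35 to 9.78, 9.72 and 9.84, and lost the call in 5 of the 6 fits with an array left out, with adjusted p up to 0.0764. Fgfr1 and Fgfr2 did not pass, at -0.42 (adjusted p = 0.245) and 0.20 (adjusted p = 0.745), and Fgfr4 was near the lowest value. Of 26 measured ligands and receptors, the intracellular family member Fgf13 was the only other gene that rose (0.94), and Egfr alone kept the call with every array left out. The transcripts of Egf and Fgf2 themselves were under the floor in both conditions, which is not absence. The study measured both by RT-qPCR in aOBSCs and reported more Fgf-2 in C4 than with daily addition. Tgfa and Hbegf, ligands of Egfr, read 0.69 (adjusted p = 0.0635) and -0.59 (adjusted p = 0.131).

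Notch ligands, which signal between neighbouring cells and keep progenitors undifferentiated, moved in opposite directions. Dll3, a ligand-like protein that acts within the cell, stood at 5.44, 5.46 and 5.21 in C2 and at 7.21, 7.17 and 7.30 in C4, 3.63-fold higher. Dll1 rose by 1.43, from 5.08, 5.38 and 4.97 to 6.40, 6.65 and 6.68. Jag1, a ligand of another class, fell by 1.04 ± 0.032 (limma, adjusted p = 0.00145). Of 24 measured genes of the pathway, 5 rose and 1 fell, the remaining rises being those of the ligand Dner (0.80), the feedback inhibitor Nrarp (0.75) and the effector Hes5 (0.28). Notch1 and Hes1 did not pass, at 0.22 (adjusted p = 0.275) and 0.049 (adjusted p = 0.952). Dll3 and Jag1 kept the call with every array left out.

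Id proteins block differentiation factors of the basic helix-loop-helix class, and BMP signals induce them. Id4 stood at 6.32, 6.35 and 6.49 in C2 and at 7.69, 8.01 and 8.11 in C4, 2.93-fold higher, and Id3 rose by 0.88 ± 0.035 (limma, adjusted p = 0.00258). Id1 and Id2 differed by 0.16 (adjusted p = 0.366) and -0.45 (adjusted p = 0.107). Of 24 measured genes, the receptor Bmpr1b also rose (0.57), and none fell. Id3 kept the call with every array left out, and Id4 did not, with adjusted p up to 0.0746. Wnt7a (0.86) was the single member that rose among 28 genes of the Wnt system, which is 3.57%, against 2.58% of all genes. It lost the call in 5 of the 6 fits with an array left out.

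**Figure D3:**
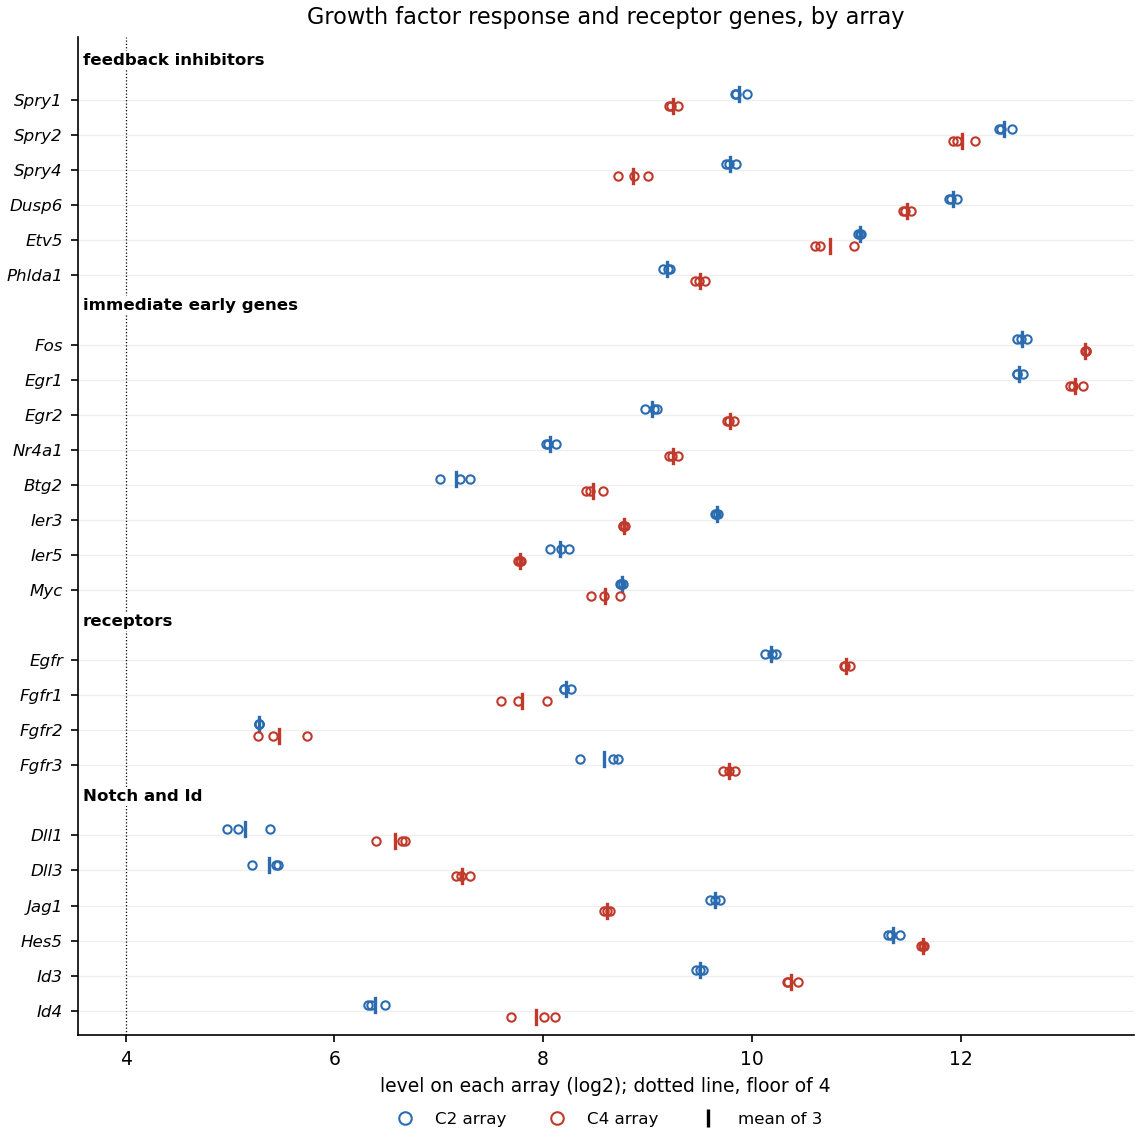
Open circles give the log2 level on each array and vertical marks the mean of 3 arrays, C2 in blue and C4 in red, for feedback inhibitors, immediate early genes, receptors and genes of the Notch and Id groups. Spry1, Spry4, Dusp6, Ier3 and Jag1 lie lower in C4 without overlap, and Fos, Egr1, Nr4a1, Btg2, Egfr and Fgfr3 lie higher, while the arrays of Fgfr2 and Myc meet.

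Genes of the oligodendrocyte lineage were among the largest rises. Of 24 measured members, 6 rose and none fell, and the median was 0.14 over all members. Gpr17 (chr18:31942999-31949890), a receptor of oligodendrocyte precursors on their way to differentiation, stood at 3.12, 3.62 and 2.63 in C2, under the floor, and at 7.33, 7.56 and 7.70 in C4. The rise of 4.41 ± 0.29 (limma, adjusted p = 0.00754) was the largest of all genes, and its size rests on where GCRMA places signals near the floor. Without C2 replicate 1 the adjusted p was 0.0516. Omg, a myelin-associated protein, rose by 1.88, from 7.01, 7.12 and 7.10 to 8.91, 9.02 and 8.93.

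Pdgfra, the receptor that marks oligodendrocyte precursors, had 3.57, 3.46 and 3.46 in C2 and 4.53, 4.81 and 5.13 in C4. Cnp, an enzyme of young oligodendrocytes, rose by 0.73, the deacetylase Sirt2 by 0.60 and the lineage factor Olig1 by 0.27. Olig2 differed by 0.014 (adjusted p = 1) and Cspg4 (NG2) by 0.76 (adjusted p = 0.0776). The genes of mature myelin, Mbp, Mog, Mag and Mobp, stood at 2.27 in C2, near the lowest value, and differed by no more than 0.0037. Cnp and Omg kept the call with every array left out.

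In bulk RNA, fewer or more cells of a type and a change in RNA per cell cannot be told apart, here and in the groups that follow.

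A part of the astrocyte genes rose too. Of 22 measured members, 6 rose and 1 fell, with a median of 0.24. Aldh1l1, a folate enzyme widely used as an astrocyte marker, stood at 7.24, 7.42 and 7.42 in C2 and at 9.24, 9.12 and 9.34 in C4, a rise of 1.88 ± 0.081 (limma, adjusted p = 0.00301). Ndrg2 had 5.45, 5.05 and 5.39 against 7.91, 7.99 and 8.19, 6.63-fold higher. The water channel Aqp4 rose by 1.17, the zinc transporter Slc39a12 by 0.71 and the lipid carrier Apoe by 0.49. All these genes were higher on every C4 array.

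Acsbg1, an acyl-CoA synthetase, was the member that fell (-0.23). Gfap, the intermediate filament of astrocytes, had a mean of 3.98 in C2 and differed by -0.19 (adjusted p = 0.753), and S100b differed by 0.47 (adjusted p = 0.115). The gap junction gene Gja1 and the glutamine synthetase Glul read 0.14 (adjusted p = 0.512) and 0.18 (adjusted p = 0.525). Aldh1l1, Apoe and Ndrg2 kept the call with every array left out.

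**Figure D4:**
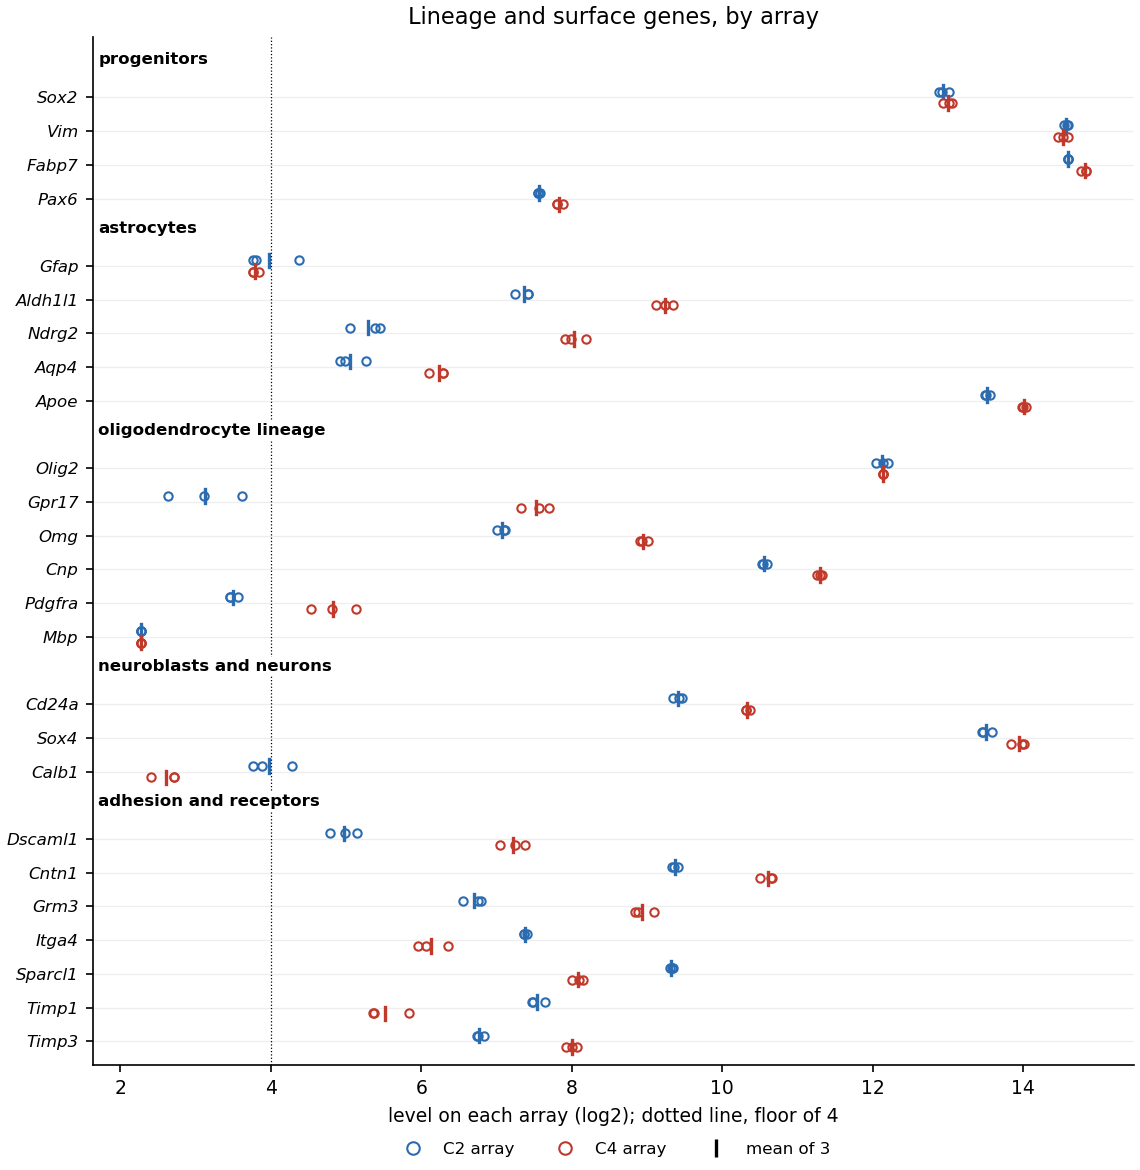
Open circles give the log2 level on each array and vertical marks the mean of 3 arrays, C2 in blue and C4 in red, for progenitor, astrocyte, oligodendrocyte and neuronal genes and for surface and matrix genes. Gpr17 and Pdgfra are under the dotted floor of 4 in C2 and over it in C4, while the arrays of Sox2, Vim and Olig2 overlap.

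Stem cell genes that define the culture were measured in both conditions. Sox2 and Vim had means of 12.94 and 14.57 in C2 and differed by 0.063 (adjusted p = 0.745) and -0.041 (adjusted p = 0.77). Nes, the filament of neural progenitors, had a mean of 5.65 and differed by 0.47 (adjusted p = 0.455), and Prom1 was at the lowest value. Of 21 measured members of the stem cell list, 4 rose, by 0.72 for Egfr and by 0.22 to 0.28 for Fabp7, Pax6 and Hes5, and none fell. Egfr alone kept the call with every array left out, and Fabp7, Pax6 and Hes5 each lost it in 5 of the 6 fits, with adjusted p up to 0.122. The factors Sox3 and Nr2e1 (Tlx) read 0.80 (adjusted p = 0.0548) and 0.53 (adjusted p = 0.0568).

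Of 30 genes of neuroblasts and neurons, 21 were under the floor, among them Dcx, Tubb3 and Rbfox3, which define these cells. Cd24a, a surface protein of neuroblasts, stood at 9.43, 9.34 and 9.46 in C2 and at 10.32, 10.37 and 10.31 in C4, a rise of 0.93 ± 0.039 (limma, adjusted p = 0.0029). Sox4, Nrxn3 and Ncam1 rose by 0.44, 0.61 and 0.26. Calb1, a calcium-binding protein of interneurons, fell by 1.36, from 3.89, 3.76 and 4.28 to 2.41, 2.71 and 2.72, with means under the floor in both conditions. Of the 4 rises and 1 decrease of the list, Cd24a alone kept the call with every array left out. Sox4, Nrxn3 and Calb1 lost it with any 1 array left out, with adjusted p up to 0.173, 0.125 and 0.132.

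Markers of other cells that a bulb culture could hold were mostly under the floor, which is not absence. None of 12 ependymal genes was over the floor. Of 10 endothelial genes it was Egfl7 alone, with Pecam1, Cldn5 and Cdh5 at the lowest value, of 13 genes of pericytes and fibroblasts Acta2 alone, with Pdgfrb near the lowest value, and of 10 genes of olfactory ensheathing cells Fabp7, which stem cells share, and S100a4. Of 13 genes of microglia and macrophages, Cd68 alone was over the floor, and the means of Aif1, Cx3cr1 and Ptprc in C2 were 2.27. Cd68, a lysosomal membrane protein, had 7.70, 7.68 and 7.75 in C2 and 5.0, 5.04 and 5.25 in C4, a difference of -2.61 ± 0.076 (limma, adjusted p = 0.00141). The lysosomal list as a whole had 2 decreases, the other being that of the hydrolase Naglu (-0.79), among 24 measured members, and Cd68 alone kept the call with every array left out. Lamp1 and Ctsd differed by 0.049 (adjusted p = 0.76) and -0.035 (adjusted p = 0.745).

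Some genes of neurotransmitter receptors and ion channels differed. Of 25 measured glutamate and GABA receptor subunits, 4 rose and none fell. Grm3, a metabotropic glutamate receptor found in astrocytes and their precursors, stood at 6.76, 6.56 and 6.79 in C2 and at 8.84, 9.10 and 8.88 in C4, 4.72-fold higher. Grin3a, a subunit of NMDA receptors, rose by 1.25, and the AMPA receptor subunits Gria2 and Gria4 by 0.82 and 0.45. Of 25 potassium channel genes, Kcnd2 and Kcnj10 (Kir4.1, the glial channel that buffers potassium) rose by 0.94 and 0.92, and Kcnc1 fell by 0.46. These are 8% and 4% of that list, against 2.58% and 2.18% of all genes and 4.95% and 4.14% of those over the floor. Grm3 and Kcnj10 kept the call with every array left out.

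Adhesion molecules of the immunoglobulin superfamily gave 6 rises and 1 decrease among 28 measured genes. Dscaml1, a homophilic adhesion molecule of neurons, stood at 4.99, 4.79 and 5.15 in C2 and at 7.05, 7.38 and 7.24 in C4, 4.74-fold higher. Cntn1, a contactin that also binds Notch, rose by 1.23 ± 0.052 (limma, adjusted p = 0.0029). Alcam and Vcam1 rose by 1.38 and 1.29, and Ncam1 and Nrcam by 0.26 and 0.23. Pvr, a nectin-like receptor that binds nectins and matrix, fell by 0.98, from 7.78, 7.87 and 7.84 to 6.82, 6.91 and 6.82. Cntn1, Dscaml1 and Pvr kept the call with every array left out.

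Among 26 cadherins and protocadherins, Cdh11 rose by 1.42, from 5.55, 5.73 and 5.76 to 7.15, 7.13 and 7.0, and Pcdh15 and Pcdh9 by 0.54 and 0.51, while Fat3 fell by 0.51. The neural cadherin Cdh2 differed by 0.17 (adjusted p = 0.745). Plexins, the receptors of semaphorins, rose in 3 cases: Plxnb1 by 1.45, Plxnb3 by 1.11 and Plxnc1 by 0.75. The ligand Sema3a fell by 0.79. Rises and decreases were 11.5% and 3.85% of the cadherin list, and 10% and 3.33% of 30 semaphorins, plexins and neuropilins. The shares were 2.58% and 2.18% over all genes, and 4.95% and 4.14% over those above the floor. Of these cadherin, plexin and semaphorin genes, Cdh11 and Plxnc1 kept the call with every array left out. None of 33 ephrins, netrins, Slits and their receptors passed the test in limma, and 5 of them had an unadjusted p under 0.05.

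Matrix genes moved in both directions. Of 33 integrins and matrix glycoproteins, 6 fell and 2 rose. Sparcl1 (hevin), a secreted protein that affects adhesion and synapses, stood at 9.33, 9.34 and 9.30 in C2 and at 8.0, 8.15 and 8.10 in C4, a difference of -1.25 ± 0.043 (limma, adjusted p = 0.00196). Npnt, a ligand of integrin alpha 8, fell by 1.23, and its receptor subunit Itga8 by 1.50, from 3.64, 4.37 and 3.87 to 2.41, 2.38 and 2.60, which is at or under the floor in both conditions. Itga4 fell by 1.24, tenascin C (Tnc), a matrix protein of the stem cell niche, by 0.70, and Sparc by 0.21. The proteoglycan Vcan and the integrin subunit Itgb5 rose by 0.88 and 0.96. Sparcl1 kept the call with every array left out. None of 24 collagens and laminins passed in limma, 2 of them with an unadjusted p under 0.05.

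The inhibitors of matrix metalloproteinases went in opposite directions. Timp1 stood at 7.47, 7.48 and 7.65 in C2 and at 5.84, 5.37 and 5.36 in C4, 4.03-fold lower, and Timp4 fell by 0.33. Timp3 rose by 1.22, from 6.83, 6.75 and 6.74 to 8.01, 8.07 and 7.92. The membrane proteases Adam10 and Adam19 fell by 0.30 and 0.57. Of these 5 genes, Timp3 and Adam10 kept the call with every array left out.

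Some genes of both lipid synthesis and lipid oxidation rose. Of 25 measured genes of sterol and fatty acid synthesis, all over the floor, 8 rose and none fell, with a median of 0.33. Every C4 array was above every C2 array for 20 of the 25. Over all genes above the floor, these shares were 4.95% for rises and 21.2% for arrays without overlap. The rises were small: Lss, which closes the sterol ring, rose by 0.59, Dhcr7 by 0.52, Scd1, which desaturates fatty acids, by 0.47, Fdft1 by 0.44, Nsdhl by 0.42, the cholesterol carrier Stard4 by 0.41, Fdps by 0.33 and Sqle by 0.25. Hmgcs1 and Idi1 read 0.35 (adjusted p = 0.243) and 0.29 (adjusted p = 0.0673). Stard4 alone kept the call with every array left out, and those fits called 1 to 3 members. A sterol regulatory element, TCACNCCA on both strands, was found in 0 of the 3 risen members with a promoter window, in 3 of the 16 that did not pass and in 4.05% of the measured genes.

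Of 26 genes of fatty acid oxidation and lipid breakdown, 5 rose and none fell. Decr1, a mitochondrial enzyme for unsaturated fatty acids, stood at 6.89, 6.63 and 6.89 in C2 and at 8.15, 8.27 and 8.13 in C4, a rise of 1.38 ± 0.09 (limma, adjusted p = 0.00754). Mgll, which breaks down monoacylglycerols, rose by 1.34, and Acaa2 and Hadh, enzymes of beta-oxidation, by 0.76 and 0.23. Pla2g7, a secreted phospholipase that inactivates platelet-activating factor, had 7.39, 7.36 and 7.40 against 9.91, 9.88 and 9.76, 5.52-fold higher. Cpt1a, which admits fatty acids to mitochondria, differed by 0.067 (adjusted p = 0.745). Acaa2, Decr1 and Pla2g7 kept the call with every array left out.

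Of 29 measured genes of glycolysis and the hypoxia response, 4 fell and none rose. Hexokinase 2 (Hk2) stood at 8.48, 8.47 and 8.42 in C2 and at 7.69, 7.64 and 7.59 in C4, and Pfkp, a phosphofructokinase, at 5.92, 6.07 and 6.16 against 4.75, 4.81 and 4.76. Pfkfb3, which makes the activator of that step, fell by 0.67. The hypoxia-responsive peptide Adm also fell (-0.75). The median over the list was -0.024, and the abundant enzymes Ldha, Pgk1 and Pkm differed by -0.0041, 0.051 and -0.12, none passing the test. Hk2 and Pfkp kept the call with every array left out. Of 28 respiratory chain subunits, 4 fell: Cox6a2, an isoform typical of muscle, by 2.27, from 7.73, 7.95 and 7.95 to 5.62, 5.73 and 5.47, and Cox5a, Ndufv1 and Cyc1 by 0.26 or less. Cox6a2 alone kept the call with every array left out.

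Of 26 DNA replication genes, 2 rose and none fell, with a median of 0.24. In all, 15 of the 26 had an unadjusted p under 0.05 in either direction, and every C4 array was above every C2 array for 13 of the 25 over the floor, against 21.2% of all genes over it. The number of rises was 8 with all 9 arrays in the fit and 9 with dim probe sets left out or after median centring, and the first 2 of these settings also called 1 decrease. Pcna, the sliding clamp of DNA polymerase, stood at 12.29, 12.24 and 12.31 in C2 and at 12.70, 12.73 and 12.68 in C4, and Mcm7, a subunit of the replicative helicase, rose by 0.30. Both kept the call with every array left out. None of 25 mitosis genes passed the test in limma, and 5 of them had an unadjusted p under 0.05. Mki67 differed by 0.44 (adjusted p = 0.113) and Top2a by 0.14 (adjusted p = 0.637), and the list's median was 0.064. Of the G1 genes, the inhibitor Cdkn1a (p21) fell by 0.46, a call lost with any 1 array left out, and Ccnd2 read -0.36 (adjusted p = 0.101).

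Beyond the groups above, the largest rises and decreases included genes of varied roles. Cyb5r1, a cytochrome b5 reductase, stood at 10.15, 10.15 and 10.16 in C2 and at 8.16, 8.14 and 8.08 in C4, a difference of -2.02 ± 0.022 (limma, adjusted p = 0.000403). P2rx3, an ATP-gated channel, had 7.77, 7.40 and 7.63 against 5.55, 4.98 and 4.98, and the surface proteins Cd93 and Tm4sf1 fell by 2.06 and 1.90. Slc4a10, a bicarbonate exchanger, went from 5.80, 5.81 and 5.93 to 3.56, 3.57 and 3.47, under the floor. The C4 arrays were lower without overlap for each of them.

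Among the rises, Cmtm5 had 3.80, 3.56 and 3.77 in C2 and 6.09, 6.38 and 6.26 in C4, so that it crossed the floor, as did 6330403K07Rik (2.66), the protein kinase C isoform Prkcq (2.15) and Tmem178 (1.83). Sncaip, a partner of alpha-synuclein, and Ryr3, a calcium release channel, rose by 1.94 and 1.80, and Ryr3 lost the call with any 1 array left out, with adjusted p up to 0.112. In all, 18 genes that rose had a C2 mean under the floor, for which a fold rests on background handling as for Gpr17.

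The genes of 1 list had been measured by RT-qPCR in the study. Apart from the EGF and FGF ligands and receptors among them, they were chosen with these arrays in view, so their share is no independent evidence of direction. Of 22 such genes, 7 rose and 8 fell in C4 relative to C2, and 5 of the rises and 4 of the decreases kept the call with every array left out. Those not yet named were Igfbp3, a binding protein of insulin-like growth factors, which stood at 12.31, 12.24 and 12.20 in C2 and at 11.11, 10.98 and 11.19 in C4, the small heat shock protein Cryab, which rose by 1.47, and the small GTPase Diras2, which fell by 0.87. Bex1 and Dclk1 differed by -0.18 (adjusted p = 0.676) and -0.38 (adjusted p = 0.144). The study's RT-qPCR set C2 and C4 against daily addition. In C4 aOBSCs it gave higher levels of Cryab, Dscaml1, Gpr17, Ndrg2, Pla2g7 and S100b. Among the downregulated genes it covered, Npnt and Calb1 alone were reported as lower in C4. For Adm the study found no significant change among Ctr, C2 and C4. The decreases given here for other genes are thus array values only.

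Many genes were read by more than 1 probe set. Called genes had 755 further probe sets over the floor, of which 720 moved in the direction of the gene's representative and 227 passed the test in that direction. No probe set passed it in the opposite direction.

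**Figure D5:**
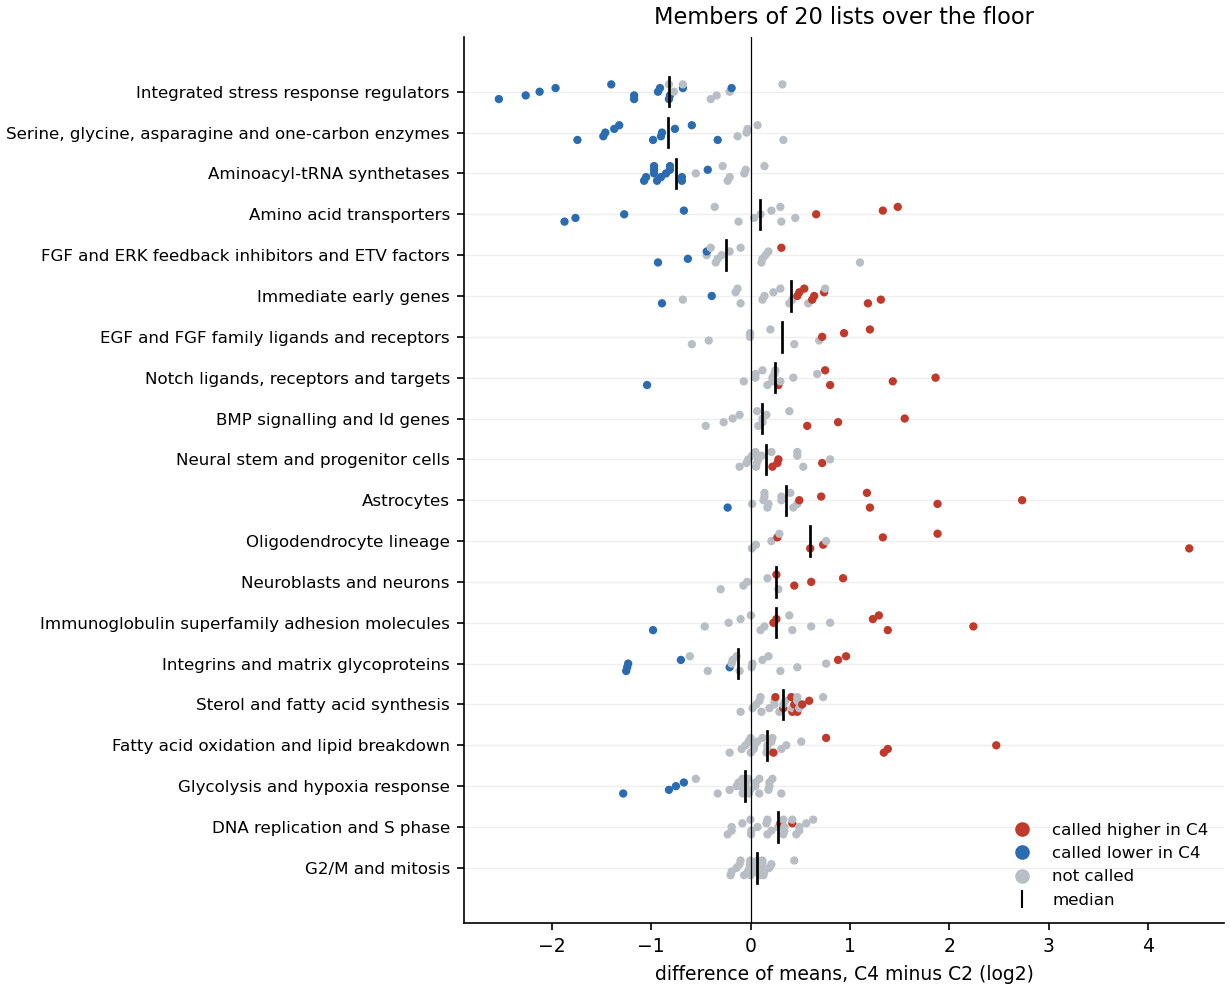
Each dot is the difference between the C4 and C2 means (log2) of a member over the floor of 20 lists, red where it rose, blue where it fell and grey where it did not pass, with a vertical mark at the median. The integrated stress response, serine and asparagine, and tRNA synthetase lists lie mostly to the left of 0, and sterol synthesis mostly to the right.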

How the data were processed

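Total RNA of aOBSC neurospheres had been hybridised by the authors to Affymetrix Mouse Genome arrays. The values deposited by the authors are log2 intensities from GCRMA (version not given in the sources used here), which corrects background by probe sequence, normalises quantiles and summarises each probe set. They were used as deposited. Arrays have no read depth, and their number limits the precision.

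The 3 C4 and 3 C2 arrays were grouped by their labels. For each probe set limma 3.58.1 (R 4.3.3) fitted the 2 condition means, with an empirical Bayes prior that follows the intensity (4 residual degrees of freedom, 0.554 from the prior). Benjamini-Hochberg adjustment ran over all 45037 probe sets, and adjusted values below 0.05 count as passing the test. Of the probe sets, 34945 carried 1 gene symbol, 932 several and 9160 none, and 34741 matched RefSeq (GRCm38.p6) by Entrez number, which gave positions and promoter sequences. The fit was also run on simulated data with independent noise, which held no array-wide shift and no shared culture. That run therefore cannot speak to the replicate block or to median centring. Alternatives were all 9 arrays, a replicate block, no trend, robust empirical Bayes, a filter on dim probe sets, median centring, repeated quantile normalisation, other probe set choices, a stricter threshold and each array left out.

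The members and the 52 gene lists were chosen with earlier results of these data known. Named genes are the 15 largest rises and decreases (called genes moving by 1 or more whose brighter group averages 4 or above and whose arrays do not overlap), up to 4 members per list with the smallest p, the genes measured by RT-qPCR, the highest member of each cell type list and up to 6 genes with probe sets called in opposite directions; not every gene of the rule is named. Further list members were named after their values were seen: Aars, Aif1, Aimp1, Aimp2, Alcam, Aldh18a1, Aldh1l2, Aqp4, Atf3, Atf4, Bckdha, Ccn1, Cdh2, Cdh5, Cebpb, Cpt1a, Cspg4, Ctsd, Dbt, Dcx, Ddit4, Dhcr7, Dner, Dusp1, Egr1, Eif2ak3, Eif2ak4, Etv4, Etv5, Farsa, Fdps, Fgfr4, Gars, Gclc, Gfap, Gja1, Glul, Got1, Hadh, Hars, Hbegf, Hes1, Hmgcs1, Hspa5, Hspa8, Id1, Id2, Idi1, Ier2, Ier5, Itga8, Itgb5, Jdp2, Jun, Kars, Lamp1, Ldha, Mag, Mbp, Mobp, Mog, Mthfd1, Mthfd1l, Mthfd2, Mthfd2l, Myc, Nes, Notch1, Nr2e1, Nrcam, Olig2, Pdgfra, Pdgfrb, Pgk1, Phgdh, Pkm, Prom1, Psat1, Ptprc, Qars, Rars, Rbfox3, S100a4, Sars, Scd1, Sesn2, Shmt1, Slc1a1, Slc1a3, Slc39a12, Slc6a11, Slc7a11, Slc7a2, Sox2, Sox3, Sparc, Spred1, Spry2, Sqle, Tars, Timp4, Top2a, Tubb3, Vcan, Vim, Vldlr and Wars.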

Additional observations from a re-analysis of the deposited data

How the results depend on the processing

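Without any replicate block 1404 probe sets passed the test. Same-numbered arrays of C2 and C4 did not deviate together (correlations of -0.0386, 0.000648 and 0.0297), so no shared replicate effect was seen. These values cannot show whether same-numbered arrays came from 1 culture or donor, which the sources do not state. With a replicate block, which leaves fewer degrees of freedom, 0 probe sets passed in limma (0 higher, 0 lower), and 4746 had an unadjusted p under 0.05. The calls were 2363 (1286 higher, 1077 lower) with all 9 arrays in the fit, 3079 (1654 and 1425) with dim probe sets left out, which tested 18305, 2882 (1445 and 1437) after median centring, 694 (390 and 304) with robust empirical Bayes and 354 (198 and 156) at an adjusted p of 0.01. With 1 array left out they ranged from 390 to 814, with 198 to 506 higher and 192 to 312 lower. The cause of these shifts was not tested. The count of differences of at least 1 stayed between 267 and 329 under every alternative that was run. Of 199 called genes that the text names, 81 kept the call with each array left out in turn and 118 lost it at least once, with adjusted p up to 0.189, and no difference changed sign. Signal near the floor and 3 arrays per condition limit the precision, and the folds of genes under a mean of 4 in C2 are the least certain.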

Other observations

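Growth factor genes outside the EGF and FGF families also differed. Bdnf, a neurotrophin, stood at 6.33, 6.44 and 6.43 in C2 and at 4.98, 4.78 and 4.97 in C4, 2.81-fold lower. Its receptor Ntrk2 rose by 0.58 and the related receptor Ntrk3 fell by 0.44. Of 14 genes of the insulin-like growth factor system, Igf2r and Insr fell by 0.55 and 0.38 and Igfbp5 rose by 0.42. Bdnf kept the call with every array left out, and Ntrk2, Ntrk3, Igf2r, Insr and Igfbp5 did not.

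Imprinted genes gave 4 rises and no decrease among 26 measured members. Nnat stood at 7.22, 7.29 and 7.22 in C2 and at 8.03, 8.21 and 8.18 in C4, a rise of 0.89 ± 0.057 (limma, adjusted p = 0.00713). Peg3 rose by 0.71, Mest by 0.30 and the noncoding Ipw by 1.73, the latter from under the floor. Nnat alone kept the call with every array left out.

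Among 22 heat shock proteins and DnaJ cochaperones, 4 rose and 2 fell. Hspa9 and Hspd1, chaperones of the mitochondrial matrix, fell by 0.86 and 0.41, while the cytosolic Hspa8 and its partner Dnaja1 rose by 0.19 and 0.28. Hspa9, Dnaja1 and Cryab kept the call with every array left out, and the difference between the compartments was not tested.

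Of 28 interferon and antigen presentation genes, Sting1, the sensor adaptor for cytosolic DNA, had 7.88, 7.92 and 7.85 in C2 and 5.98, 6.08 and 6.27 in C4, 3.41-fold lower. Ifitm3 fell by 1.07 and B2m by 0.095, and Ifit2 rose by 1.06. B2m lost the call after median centring. Decreases are 10.7% and rises 3.57% of the list, against 2.18% and 2.58% of all genes. Sting1 and Ifitm3 kept the call with every array left out. Slc9a3r1, a scaffold of ion exchangers, rose by 1.04, and the carbonic anhydrase Car3 fell by 0.43.

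Of 17 measured genes of the Bcl2 family, Bid, which promotes cell death, and Bcl2l2, which protects from it, fell by 0.69 and 0.48, and none rose. Among 19 p53 target genes, Btg2 rose by 1.31, and Gadd45a, Cdkn1a and the kinase Plk2 fell by 0.91, 0.46 and 0.40. Of 21 FOXO factors and targets, Foxo3 fell by 0.21, which is 4.76% of the list, against 2.18% of all genes and 4.14% of those over the floor. The FOXO target genes Bcl6, Sesn3 and Pik3ip1 rose by 0.64, 0.56 and 0.39, and no called gene of these 3 lists kept the call with every array left out. Of 25 measured genes of synaptic vesicle release, Syt11 rose by 0.37, a call lost with any 1 array left out, and none fell. That is 4% of the list, near the 2.58% of all genes and 4.95% of those over the floor that rose.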
